A study of Mus musculus with 187 samples.

Results

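Single mouse embryos at the 4-cell stage were compared after injection of an antisense oligonucleotide to tRF-GlyGCC or of GFP mRNA at the zygote stage. The embryos were those whose label of injected RNA reads tRF-GlyGCC Antisense or GFP and whose source is a 4-cell embryo, matched to the columns of the 4-cell expression table by the embryo number in their titles. This gave 55 of the 187 embryos of the series, 27 with antisense and 28 with GFP. No column carries the number of 1 more antisense embryo, which was not analysed here. All embryos were of the FVB strain and came from in vitro fertilisation of gametes from mice on a control diet, with injection 2 h afterwards. The sources used here give no hour for collection at the 4-cell stage. The control mRNA encodes histone H3.3 fused to GFP, and embryos with GFP signal were collected in both groups, so that the antisense embryos may also have carried this mRNA, which their label does not name. The deposited table of the authors' own tests on these embryos calls the injected group tRFGGunmod, whereas the labels and the headings of the expression table say antisense. The labels were followed here, the identity of the injected RNA is uncertain, and neither the fragment nor its blocking was measured.

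tRF-GlyGCC is a fragment of the glycine transfer RNA with anticodon GCC, and such fragments are abundant in mouse sperm. They have been linked in mouse embryos and stem cells to a set of genes driven by MERVL, an endogenous retrovirus whose long terminal repeats act as promoters for a burst of transcription in the 2-cell embryo. At the 4-cell stage this burst is fading, most transcripts stored by the oocyte have been degraded, and the embryo relies on its own genome for ribosomes, histones and the first lineage factors.

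The embryos fell into 8 batches by the end code of their titles, here lettered J to R without O. The end code of K is that of J with an added suffix, so J and K may not be independent batches. Batches J to Q held both groups, with 2 to 5 antisense and 2 to 5 GFP embryos each, and batch R held 4 GFP embryos only. Since litters are not given for single embryos, the p-values measure spread among embryos and not among litters. From the steps between low FPKM values (fragments per kilobase of transcript, scaled to the mapped fragments of a library), the depth was estimated at 924000 to 5350000 fragments per embryo with antisense and 870000 to 3558000 with GFP. The antisense embryos had 6644 to 11496 features at 1 FPKM or more (median 10100) and the GFP embryos 9155 to 10610 (median 10082.5). Antisense replicates 9, of batch Q, and 19, of batch N, had the fewest detected features, and results are given with and without them where it matters. All 10 defining transcripts of the preimplantation embryo passed the filter on low values. Of 15 markers of cumulus and granulosa cells only Amhr2 passed it, at a median of 108.6 FPKM with antisense and 105 FPKM with GFP, with 3 of the 15 at 0 in every embryo, and the summed level of the list was 5.79 to 208 FPKM with antisense and 43.2 to 152 FPKM with GFP. Of 10 sperm and spermatid markers, 1 passed. Y-linked transcripts summed to at least 1 FPKM in 10 antisense and 13 GFP embryos.

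The clearest difference was in the Obox genes, a rodent family of homeobox transcription factors active in oocytes and early embryos, whose joint loss in mice stops development soon after the first cleavages. Obox2 and Obox5 rose with antisense, and they were the only features called among 7237 tested, which is 0.0276% called higher and 0% called lower (limma, Benjamini-Hochberg adjusted p under 0.05). The family lies on mouse chromosome 7, where RefSeq places Obox2 at chr7:15388851-15398545 and Obox5 at chr7:15750370-15759274, and some of its members are near-identical copies. The sequences around the starts of 4 members are shown because they bear on which of them could share reads and regulatory sequence. They are given 5′ to 3′ on the strand of the gene, from RefSeq on GRCm38.p6, with 250 bases before and 50 after the annotated start, and capitals mark the letters TATATAAG.
Obox1 (chr7:15547007-15547306, plus strand): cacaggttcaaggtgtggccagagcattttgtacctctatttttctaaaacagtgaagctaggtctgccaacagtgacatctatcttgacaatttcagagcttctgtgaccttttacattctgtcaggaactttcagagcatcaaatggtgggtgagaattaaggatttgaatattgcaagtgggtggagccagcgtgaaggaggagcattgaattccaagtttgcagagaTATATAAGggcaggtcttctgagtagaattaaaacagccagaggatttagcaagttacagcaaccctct
Obox2 (chr7:15388601-15388900, plus strand): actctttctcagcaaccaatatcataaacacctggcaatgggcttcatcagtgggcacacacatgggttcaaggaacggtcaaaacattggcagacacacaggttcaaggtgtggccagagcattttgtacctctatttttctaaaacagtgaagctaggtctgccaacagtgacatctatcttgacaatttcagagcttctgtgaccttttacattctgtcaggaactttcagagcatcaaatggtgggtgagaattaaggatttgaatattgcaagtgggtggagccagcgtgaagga
Obox3 (chr7:15639728-15640027, minus strand): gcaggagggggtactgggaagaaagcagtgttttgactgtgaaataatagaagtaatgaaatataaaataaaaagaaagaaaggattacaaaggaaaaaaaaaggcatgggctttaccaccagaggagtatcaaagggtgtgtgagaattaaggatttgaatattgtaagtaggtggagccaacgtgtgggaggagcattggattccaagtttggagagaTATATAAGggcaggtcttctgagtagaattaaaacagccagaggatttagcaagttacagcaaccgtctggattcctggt
Obox5 (chr7:15750120-15750419, plus strand): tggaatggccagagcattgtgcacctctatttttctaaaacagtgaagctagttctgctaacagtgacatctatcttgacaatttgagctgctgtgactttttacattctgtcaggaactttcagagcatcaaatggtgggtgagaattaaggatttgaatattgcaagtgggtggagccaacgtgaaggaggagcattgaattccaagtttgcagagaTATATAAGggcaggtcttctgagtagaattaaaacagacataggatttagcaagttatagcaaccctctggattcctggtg

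Obox1, Obox3 and Obox5 hold TATATAAG 19, 30 and 31 bases before the annotated start. These letters occur on either strand in 331 of 32851 RefSeq promoter windows of this length, or 1.01%, and were chosen after the sequences were seen. The Obox2 window does not hold them. Its annotated start lies farther upstream in shared sequence: a run of 203 bases is identical in the Obox1 and Obox2 windows, offset by 97 bases. The longest run shared by Obox1 and Obox5 is 82 bases, and that shared by Obox1 and Obox3 is 70 bases. The transcripts differ in how far they can be told apart. Of the 50-base windows of the longest annotated Obox2 transcript, 60.1% occur exactly in Obox1 transcripts, against 5.04% in those of Obox5. Of the windows of Obox5, 11.8% occur in another family member, most of them in Obox7, and of those of Obox3 1.34% do. Values of Obox1 and Obox2 may thus share reads, whereas Obox5 and Obox3 shared smaller parts of their sequence with the members compared. Only Obox1, Obox2, Obox3, Obox5, Obox6, Obox7, Obox8 and Crxos were compared. Whether reads are shared with other copies or other transcripts was not tested.

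Obox2 had 4.74 FPKM in the lowest antisense embryo, 13.3 at the median and 39.4 in the highest, against 0.993, 6.13 and 17.7 FPKM with GFP. In an embryo this corresponded to about 18 fragments at the median. The ranges overlapped, although 26 of 27 antisense embryos exceeded the median of the GFP group and 9 its maximum. On the log2(FPKM + 1) scale the difference was 1.19 ± 0.22 (SE; limma adjusted p = 0.0104). Within batches the mean was higher with antisense in 7 of 7, from 0.69 in batch P to 1.95 in batch Q. For Obox2, 100000 permutations of the groups within batches gave an unadjusted p = 1e-05, the smallest they can give. The permutation was run only for Obox2 and Obox5, after they had been called on these same values. Its p is not adjusted for that choice and adds no independent evidence.

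Obox5 had 12.6, 28.7 and 129 FPKM at the lowest, median and highest antisense embryo and 6.04, 15.2 and 38.5 FPKM with GFP. The ranges overlapped, although 25 of 27 antisense embryos exceeded the median of the GFP group and 5 its maximum. The difference was 1.03 ± 0.20 on the log2 scale (limma adjusted p = 0.0118), and the permutation within batches gave an unadjusted p = 2e-05, with the same limit. All 7 batches were higher, from 0.16 in batch P to 2.30 in batch Q. Batch Q carried the largest difference of both genes. Without batch Q no feature was called, and the log2 differences were 1.02 for Obox2 (limma adjusted p = 0.421) and 0.75 for Obox5 (limma adjusted p = 0.508), with 481 features higher and 105 lower at an unadjusted p under 0.05. Across all alternatives tried the limma adjusted p ranged from 0.00272 to those values.

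**Figure D1:**
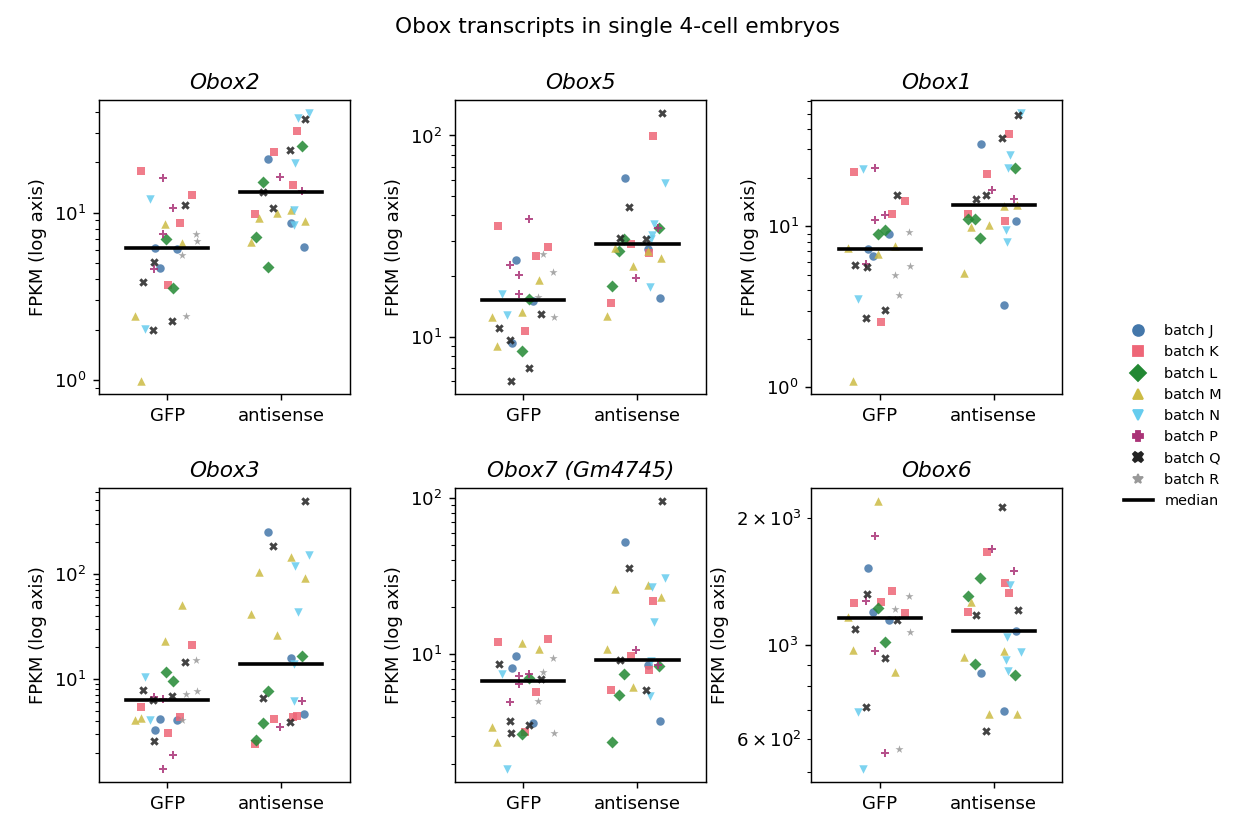
FPKM of 6 Obox transcripts (log axis) in each of 28 GFP and 27 antisense embryos, with points shaped and coloured by batch and a bar at the group median. Obox2, Obox5 and Obox1 are shifted upward over most antisense embryos, Obox3 and Obox7 are spread upward in some of them, and Obox6 has similar medians of 1081 and 1160 FPKM.

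Estimates were positive for all 7 family members in the table (median log2 difference 1.03), those of Obox6 and Crxos near 0 and negative under some alternatives, but 5 of the 7 were not called. Obox1, the near copy of Obox2, had 3.25, 13.5 and 50.2 FPKM with antisense and 1.10, 7.25 and 22.9 FPKM with GFP (lowest, median and highest). It lay above the GFP median in 25 of 27 embryos and was higher in 7 of 7 batches, with a log2 difference of 0.93 ± 0.24 (limma adjusted p = 0.141). Obox7, listed as Gm4745, had medians of 9.24 and 6.71 FPKM, and 10 of 27 antisense embryos exceeded the highest GFP embryo at 12.5 FPKM. Its log2 difference was 1.04 ± 0.26 (limma adjusted p = 0.141).

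Obox3 was spread more widely than the other members. It ranged from 2.42 to 487 FPKM with antisense (median 13.9) and from 1.41 to 50.5 FPKM with GFP (median 6.38). It exceeded the median of the GFP group in 16 of 27 antisense embryos, and its maximum in 8. Its batch means were higher by 2.33 to 2.58 on the log2 scale in batches J, M, N and Q and lower by 0.65 and 0.68 in K and L. The log2 difference was 1.34 ± 0.43 (limma adjusted p = 0.182).

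Obox6 and the related gene Crxos, which had by far the highest FPKM of the list, had nearly level estimates. Obox6 had 626, 1081 and 2129 FPKM with antisense and 509, 1160 and 2195 FPKM with GFP, a log2 difference of 0.06 ± 0.13 (limma adjusted p = 0.92). Crxos, listed as Crxos1 and also called Egam1, had medians of 1876 and 2215 FPKM and a log2 difference of 0.04 ± 0.18 (limma adjusted p = 0.97). As a description of the 5 members with the larger estimates, chosen after their values were seen and with Obox1 and Obox2 possibly sharing reads, embryos were counted by gene. Over Obox1, Obox2, Obox3, Obox5 and Obox7, 12 of 27 antisense embryos and 3 of 28 GFP embryos lay above the GFP median for all 5 genes. None of the antisense and 8 of the GFP embryos did so for at most 1 of them.

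**Figure D2:**
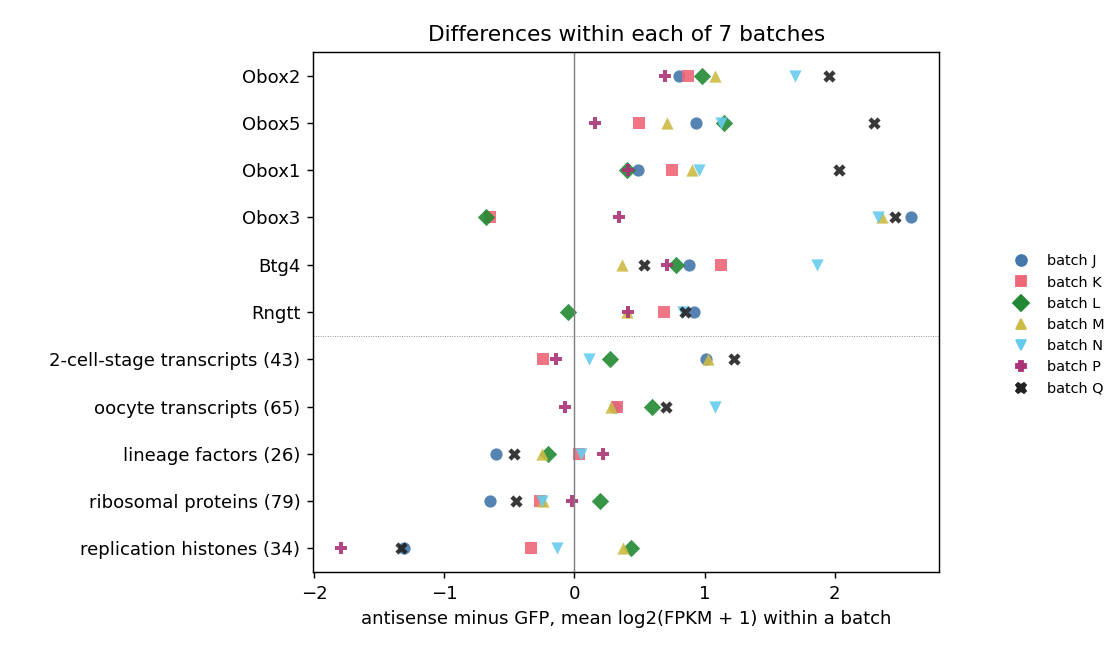
Difference between the antisense and GFP means of log2(FPKM + 1) within each of the 7 batches that hold both groups, for 6 genes (above the dotted line) and for the mean over 5 gene lists (below it, tested members in parentheses). Obox2, Obox5, Obox1 and Btg4 are above 0 in every batch, while the lists have batches on both sides of 0. Of the 43 members of the 2-cell-stage list, 16 passed the filter with a GFP mean under 5 FPKM.

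Beyond these genes the comparison gave no call, so the remaining genes and lists are described by their estimates. At an unadjusted p under 0.05, 525 features (7.25%) were higher and 262 (3.62%) lower with antisense. Estimates were positive for 52.7% and negative for 47.3% of features, with a median of 0.01. This split moved with the scaling: 399 were higher and 422 lower after median-of-ratios scaling, 471 and 418 after quantile normalization, and 528 and 502 without the batch term. Without batch N the numbers were 454 and 457.

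Among the features with the smallest p on the higher side was Btg4, an adaptor that recruits the CCR4-NOT deadenylase to maternal mRNA in mouse oocytes and zygotes. It had 10.9, 58.1 and 364 FPKM with antisense and 5.61, 31.3 and 63 FPKM with GFP. As many as 12 of 27 antisense embryos lay above the highest GFP embryo, although 7 did not exceed the GFP median. The log2 difference of Btg4 was 0.85 ± 0.21, higher in 7 of 7 batches (limma adjusted p = 0.141). Rngtt, the mRNA capping enzyme, had medians of 29.8 and 18.2 FPKM, with 25 of 27 antisense values over the GFP median (log2 difference 0.60 ± 0.14, limma adjusted p = 0.086).

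Pias1, a SUMO ligase, had medians of 13.3 and 8.0 FPKM (0.74 ± 0.17, limma adjusted p = 0.086). Sap30, a subunit of the SIN3 histone deacetylase complex, had medians of 84.8 and 53.2 FPKM, and Ppp1cc, a catalytic subunit of protein phosphatase 1, of 102 and 78.6 FPKM. Ubap1, a subunit of the ESCRT-I sorting complex, had medians of 50.1 and 32.8 FPKM, and Gpbp1 of 101 and 77.2 FPKM. Their estimates were higher in 7 of 7 batches, those of Pias1 in 6 of 7. E330021D16Rik, annotated as protein-coding, had medians of 13.1 and 5.69 FPKM and lay above the GFP median in 26 of 27 antisense embryos (1.11 ± 0.25, limma adjusted p = 0.086).

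Without antisense replicates 9 and 19, 10 of 7266 features (0.138%) were called, all higher, and at an unadjusted p under 0.05 10.9% were higher and 4.27% lower. They were Obox2, Obox5, Btg4, Rngtt, Pias1, Gm1965, Slc1a5, Tmpo, Pla2g4c and Aldh6a1. Slc1a5, a transporter of neutral amino acids, had 0.488, 23.6 and 72.9 FPKM with antisense and 1.66, 12 and 30.02 FPKM with GFP over all embryos. Its limma adjusted p was 0.18 with all embryos and 0.0212 without these 2. Tmpo, which encodes lamina-associated polypeptide 2, had medians of 16.4 and 10.2 FPKM, with limma adjusted p = 0.21 and 0.0212. The other 3, Pla2g4c, Aldh6a1 and the long noncoding RNA Gm1965, had limma adjusted p = 0.0133, 0.0441 and 0.0499 without the 2 embryos. Aldh6a1 passed the filter with a GFP mean of 4.83 FPKM.

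On the lower side Gnb2l1 had the smallest p. It encodes RACK1, a scaffold on the small ribosomal subunit, and had 160, 404 and 855 FPKM with antisense and 341, 584 and 1004 FPKM with GFP. Of 27 antisense embryos 10 lay below the lowest GFP embryo and 4 above the GFP median (log2 difference -0.45 ± 0.12, limma adjusted p = 0.141). Npm1, the nucleolar chaperone nucleophosmin, had 1140, 2154 and 3581 FPKM against 1976, 2870 and 6878 FPKM. As many as 13 antisense embryos lay below the lowest GFP embryo, and 2 lay above the GFP median (-0.39 ± 0.10, limma adjusted p = 0.141). Eef1b2, a subunit of the elongation factor that recharges eEF1A, had medians of 96.4 and 137 FPKM.

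The other genes of smallest p on the lower side had various roles. Ppp2r1a, the scaffold subunit of protein phosphatase 2A, had medians of 63.3 and 78.8 FPKM and was lower in 7 of 7 batches. Grn, the precursor of the granulins, had medians of 112 and 184 FPKM, Mlf2 of 536 and 818 FPKM, Tom1 of 24.3 and 29.2 FPKM and the pseudogene Atp6v0c-ps2 of 277 and 365 FPKM. The small nucleolar RNA gene Snora64 was at 0 in 26 of 27 antisense and 16 of 28 GFP embryos. Calcoco2, an autophagy receptor and a gene of the 2-cell stage linked to MERVL, was lower in 7 of 7 batches, with medians of 488 and 646 FPKM (-0.36 ± 0.11, limma adjusted p = 0.18).

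**Figure D3:**
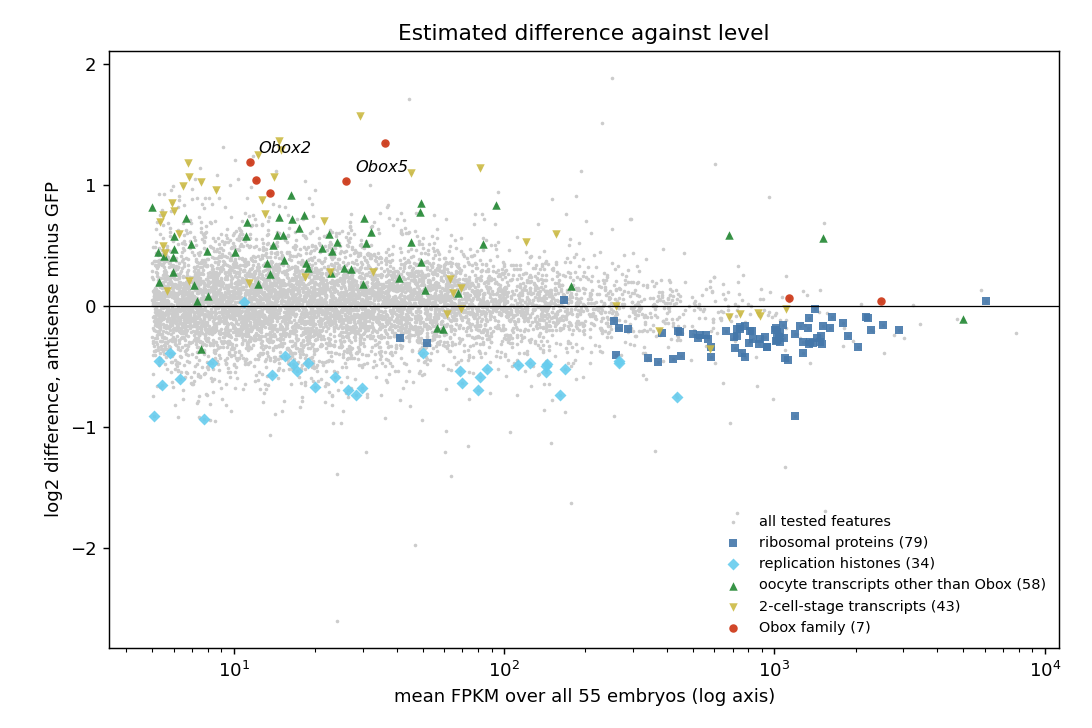
Estimated log2 difference (antisense minus GFP) against the mean FPKM over all 55 embryos (log axis) for 7237 tested features in grey, with 5 gene lists in colour. Obox genes and most oocyte and 2-cell-stage transcripts lie above 0 at low and middle levels, and 77 of 79 ribosomal protein genes lie below 0 at high levels.

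Transcripts of the 2-cell stage were described as 7 families or sets, with 71 features in the table, of which 43 passed the filter on low values. With no filter, 70 members had a value above 0, and 58 of these had a higher and 12 a lower estimate (median log2 difference 0.52, against 0.01 over all features fitted). Of the 43 tested, 16 passed the filter although their GFP mean was under 5 FPKM, so that their number higher in itself shows little. None was called, and 16 of 43 (37.2%) were higher and 1 (2.33%) lower at an unadjusted p under 0.05. Over all tested features these shares were 7.25% and 3.62%.

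Of the 4 Tcstv genes, which code for small proteins of the 2-cell stage, 3 had a higher estimate, and 2 passed the filter with a GFP mean under 5 FPKM. Tcstv3 had 0.827, 12.9 and 367 FPKM with antisense and 0.329, 6.45 and 28.5 FPKM with GFP, a log2 difference of 1.57 ± 0.45 (limma adjusted p = 0.175). Tcstv1 had medians of 6.20 and 3.08 FPKM and AF067061 of 8.54 and 3.52 FPKM, and 9 or 10 antisense embryos exceeded the highest GFP embryo for each of these 3 genes. Tcstv1 and AF067061 are the 2 that passed the filter with a GFP mean under 5 FPKM, so that their counts in themselves show little. AF067063, the member with the highest FPKM, had medians of 191 and 156 FPKM and a log2 difference of -0.0039 ± 0.30 (limma adjusted p = 0.998), and its sign differed between alternatives. All 6 Zscan4 genes, which act on telomeres and chromatin in mouse embryonic stem cells, were low. Their estimates were higher in 6 of 6 cases with no filter (median 0.52). Zscan4d, the form described for the 2-cell embryo, had 0.758, 6.36 and 51.1 FPKM with antisense and 0.955, 3.81 and 14.4 FPKM with GFP (0.59 ± 0.25, limma adjusted p = 0.347). It passed the filter with a GFP mean of 4.18 FPKM.

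The Eif1a-like genes Gm2016, Gm2022, Gm5662 and Gm8300, copies related to a translation initiation factor, had medians of 3.79 to 5.68 FPKM with antisense and 2.22 to 3.24 FPKM with GFP. For each of them 6 to 8 antisense embryos exceeded every GFP embryo. All 4 passed the filter with a GFP mean under 5 FPKM, so that these counts in themselves show little. With no filter, 7 of 7 members had a higher estimate (median 0.96). The Tdpoz genes Tdpoz1, Tdpoz2, Tdpoz3 and Tdpoz4, related to the ubiquitin ligase adaptor SPOP, had medians of 5.42 to 123 FPKM against 2.41 to 51.9 FPKM. The highest value of Tdpoz2 (1004 FPKM) and that of Tdpoz4 (793 FPKM) were in GFP embryos. The members of these families are near-identical copies, and reads cannot be assigned to a single one with certainty.

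The single-copy genes linked to MERVL had estimates on both sides: 9 of 14 tested were higher and 5 lower (median 0.13). At an unadjusted p under 0.05, 3 (21.4%) were higher and 1 (7.14%), Calcoco2, lower, against 7.25% and 3.62% of all tested features. With no filter 17 of 24 were higher (median 0.23), at a mean of at least 10 FPKM the median was -0.03, and the list was higher in 4 and lower in 3 batches. Among the higher genes, Arg2, a mitochondrial arginase, had 0, 6.19 and 66.3 FPKM with antisense and 0, 2.20 and 9.56 FPKM with GFP (1.18 ± 0.38, limma adjusted p = 0.188). Zfp352, a zinc finger gene of the 2-cell stage, had medians of 3.89 and 1.88 FPKM and reached 85.9 and 9.88 FPKM. For Arg2 8 and for Zfp352 7 antisense embryos lay above every GFP embryo, and the others overlapped with them. Both are among the 4 of 14 tested genes that passed the filter with a GFP mean under 5 FPKM. Their counts beyond the GFP range thus show little in themselves. The Prame-like genes had 8 of 12 higher estimates (median 0.21), and 7 antisense embryos were above every GFP embryo for Gm13109, which reached 249 and 11.5 FPKM. Gm13109 passed the filter with a GFP mean of 3.68 FPKM, and the same limit holds for it. The Usp17-like deubiquitinase Usp17lb had medians of 2.96 and 1.69 FPKM, and 3 antisense embryos exceeded the highest GFP embryo at 204 FPKM. Over all 43 tested transcripts of the 2-cell stage the mean log2(FPKM + 1) was 3.72, 4.43 and 6.84 with antisense and 3.59, 4.08 and 5.09 with GFP (lowest, median and highest). Of the antisense embryos 6 lay at 6.01 to 6.84, above every GFP embryo, and the next at 5.04. Since 16 of the 43 members passed the filter with a GFP mean under 5 FPKM, this level partly carries that choice. The number of embryos beyond the GFP range thus shows little in itself. Summed FPKM over all 71 features was 3083.5, 6465 and 12699 with antisense and 4255, 5901 and 12459 with GFP.

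The 6 embryos with a level above the GFP range came from batches J, M, N and Q. They held an estimated 1120000 to 3105000 fragments and had 9792 to 10698 features at 1 FPKM or more, within the range of the other embryos. All 6 were also above the GFP median for the Obox list and below it for the lists of ribosomal proteins and lineage factors. Of all 27 antisense embryos, 26 lay above the GFP median for the Obox list, 8 for ribosomal proteins and 9 for lineage factors. The position of the 6 on the Obox list thus does not set them apart. By batch, the 2-cell-stage list was higher in 5 of 7, by 1.01 in J, 1.03 in M, 1.23 in Q, 0.27 in L and 0.11 in N, and lower by 0.24 in K and 0.14 in P. These differences are of the same level over the 43 tested members and share its limit.

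**Figure D4:**
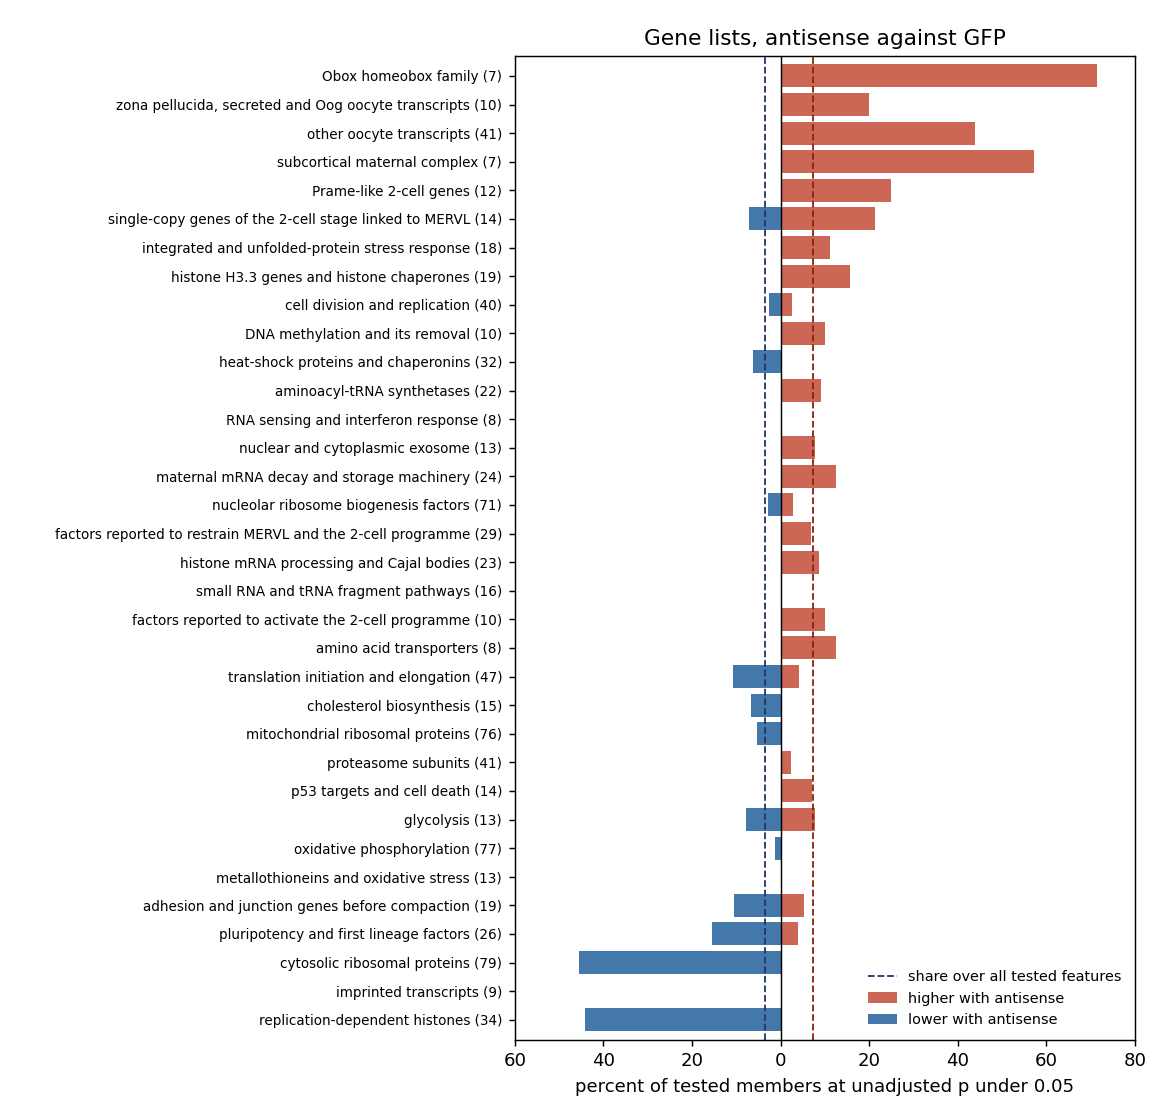
Share of the tested members of each gene list with at least 7 of them (number in parentheses) that had an unadjusted limma p under 0.05. Bars are drawn to the right when higher and to the left when lower with antisense, and ordered by the median log2 difference. Smaller lists, such as Zscan4, Tcstv, Tdpoz, Eif1a-like and Usp17-like, are not drawn. Dashed lines give the shares over all tested features, 7.25% higher and 3.62% lower. Among others, the Obox, oocyte, Prame-like and single-copy MERVL-linked lists exceed it on the right. Some tested members passed the filter with a GFP mean under 5 FPKM. They were 2 of 12 Prame-like, 4 of 14 MERVL-linked, 1 of 7 subcortical maternal complex and 6 of 41 other oocyte transcripts. The bars of these lists partly carry that choice. On the left the ribosomal protein, histone, lineage, translation and adhesion lists do so, among others. Some histone members and the lineage gene Fgfr2 passed the filter through the GFP embryos.

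Transcripts stored by the oocyte also had mostly higher estimates. The oocyte lists, Obox genes included, held 84 features, of which 75 had a higher and 9 a lower estimate with no filter (median 0.44). Of the 65 that passed the filter, 61 had a higher estimate and 2, the Obox genes above, were called. At an unadjusted p under 0.05, 29 (44.6%) were higher and none lower, against 7.25% and 3.62% of all tested features. Of these 65, 7 had a GFP mean under 5 FPKM and passed the filter through the antisense embryos. The mean log2(FPKM + 1) of the 65 was 3.17, 4.64 and 5.65 with antisense and 3.50, 4.15 and 5.06 with GFP. The groups overlapped widely, although 24 of 27 antisense embryos exceeded the median of the GFP group and 5 its maximum. The list was higher in 6 of 7 batches, from 0.28 in M to 1.08 in N, and lower by 0.08 in P.

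The subcortical maternal complex, a protein lattice under the membrane of mouse oocytes that the first cleavages need, had 7 of 8 members with a higher and 1 with a lower estimate when no filter was applied (median 0.32). The lower one was not tested, and of the 7 tested, Nlrp5 passed the filter with a GFP mean of 4.96 FPKM. Nlrp5, its core component, had 1.42, 6.41 and 18.1 FPKM with antisense and 1.83, 4.73 and 8.6 FPKM with GFP (0.40 ± 0.16, limma adjusted p = 0.32). Ooep had medians of 14.7 and 9.56 FPKM, Nlrp4f of 10.4 and 7.51 FPKM and Zbed3 of 93.8 and 51.8 FPKM. Zbed3 reached 680 FPKM with antisense and 230 FPKM with GFP (0.83 ± 0.27, limma adjusted p = 0.186).

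The other oocyte transcripts had 37 of 41 higher estimates, with 18 (43.9%) at an unadjusted p under 0.05, against 7.25% of all tested features. Fbxw15, an F-box gene of the oocyte, had 3.18, 17.6 and 105 FPKM with antisense and 1.65, 9.53 and 28.5 FPKM with GFP, and was higher in 7 of 7 batches (0.92 ± 0.24, limma adjusted p = 0.141). Rfpl4, which codes for a RING finger protein of the oocyte, had medians of 21.6 and 11.5 FPKM and was also higher in 7 of 7 batches (0.75 ± 0.20, limma adjusted p = 0.154). H1foo, the oocyte linker histone, had medians of 27.4 and 16.8 FPKM. A separate list of zona pellucida, secreted and Oog transcripts had 10 of 10 higher estimates (median 0.49), with 2 (20%) at that level. These were Zp3, a zona pellucida glycoprotein, with medians of 18.9 and 13.5 FPKM, and Oog3, an oogenesin, with 17.1 and 11 FPKM. Zp1 and Zp2 had log2 differences of 0.17 ± 0.22 and 0.08 ± 0.25 (limma adjusted p = 0.831 and 0.949).

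The machinery that degrades and stores maternal mRNA had a median near that of all features. Of 24 tested members 14 had a higher estimate, with a median of 0.03. At an unadjusted p under 0.05, 3 (12.5%) were higher and none lower, against 7.25% and 3.62% of all tested features. The 3 were Rngtt, Btg4 and Lsm14a, an mRNP component with medians of 20.2 and 12.6 FPKM. Cnot1, the scaffold of the CCR4-NOT deadenylase, had medians of 27.6 and 29.8 FPKM.

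Cytosolic ribosomal protein genes had lower estimates in 77 of 79 cases, with a median log2 difference of -0.25. None was called, and 36 (45.6%) were lower and none higher at an unadjusted p under 0.05, against 3.62% and 7.25% of all tested features. Without antisense replicates 9 and 19, 45 of 79 were lower, and 4.27% of all tested features. Rpl18, a protein of the large subunit, had 242, 872 and 1782 FPKM with antisense and 738, 1221 and 3943 FPKM with GFP (-0.44 ± 0.13, limma adjusted p = 0.18). Rps4x, of the small subunit, had medians of 887 and 1119 FPKM, Rpl7a of 603 and 848 FPKM, Rps2 of 1240 and 1630 FPKM and Rpsa of 309 and 429 FPKM. For each of these 5 genes 2 to 7 antisense embryos lay above the GFP median.

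The mean log2(FPKM + 1) of the 79 genes was 8.64, 9.47 and 10.31 with antisense and 9.28, 9.70 and 11.33 with GFP. Of 27 antisense embryos 12 lay below every GFP embryo and none above the highest. The list was lower in 6 of 7 batches, by 0.65 in J, 0.45 in Q, 0.26 in K, 0.25 in N, 0.24 in M and 0.02 in P, and higher by 0.20 in L. Many ribosomal protein genes have processed pseudogenes, so that reads may be shared. In mice the mRNAs of ribosomal proteins begin with an oligopyrimidine tract. A C followed by 6 more pyrimidines, searched on the gene's strand within 20 bases of the annotated start, was found for 31 of 58 ribosomal protein genes with a RefSeq promoter and for 20.3% of the 5756 tested features with one. The median log2 difference was -0.23 for the 31 genes with such a start and -0.26 for the other 27. Among features that are no ribosomal protein genes it was 0.01 with and 0.02 without it.

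Highly expressed features in general leaned lower. Leaving out ribosomal protein genes, 161 of 272 features averaging 300 FPKM or more had a lower estimate (median -0.05), against 766 of 1665 at 5 to 10 FPKM (median 0.02). Features with transcripts of 500 to 1000 bases, again without ribosomal protein genes, had a median of 0.01. Whether level or length has a part in the values of the ribosomal protein genes was not tested. Mitochondrial ribosomal proteins had a median of -0.05, with 48 of 76 lower. At an unadjusted p under 0.05, 4 (5.26%) were lower and none higher, near the 3.62% lower of all tested features. Among the members were Mrps25 with medians of 11 and 13.2 FPKM and Mrps18b with 244 and 360 FPKM. Oxidative phosphorylation genes had a median of -0.10, with 51 of 77 lower and 1 (1.30%) of them at an unadjusted p under 0.05, below that share.

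Nucleolar ribosome biogenesis factors had estimates on both sides. Of 71 tested, 43 had a higher and 28 a lower estimate, with a median of 0.02 and 2 members at an unadjusted p under 0.05 in each direction. The lower ones were Npm1 and Tsr1, a maturation factor of the small subunit with medians of 29 and 35.5 FPKM, while Ddx52, an RNA helicase among the higher ones, had medians of 58 and 45.4 FPKM. Ncl, nucleolin, had medians of 70.2 and 82.6 FPKM. Of 47 translation initiation and elongation genes 5 (10.6%) were lower and 2 (4.26%) higher at that level (median -0.04). Over all tested features 3.62% were lower and 7.25% higher. Eif3f had medians of 124 and 157 FPKM and Eif5a, a factor modified with hypusine, of 1131 and 1322 FPKM.

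**Figure D5:**
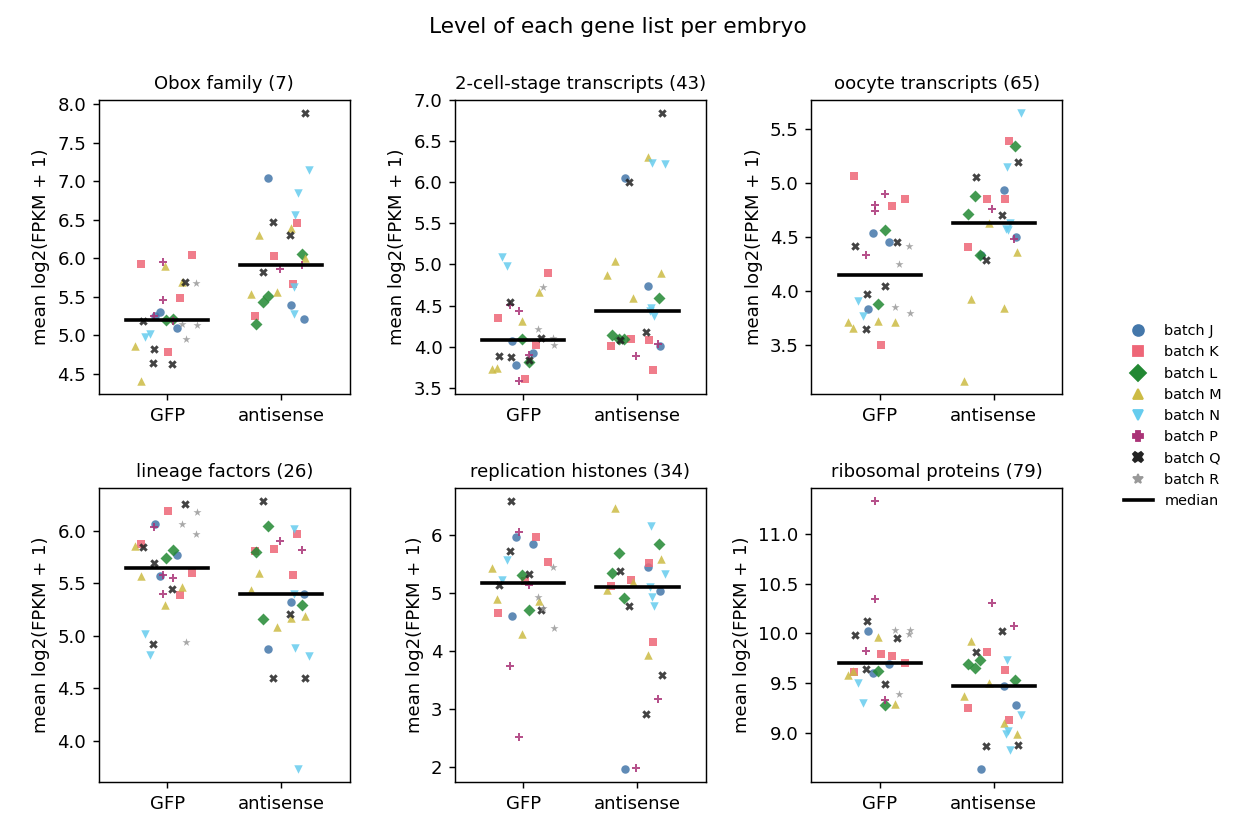
Mean log2(FPKM + 1) over the tested members of 6 gene lists (number in parentheses) in each embryo, by group, with points shaped and coloured by batch and a bar at the group median. For the 2-cell-stage list 6 antisense embryos stand at 6.01 to 6.84 above all others, and for ribosomal proteins 12 antisense embryos lie below every GFP embryo. Of the 43 members of the 2-cell-stage list, 16 passed the filter with a GFP mean under 5 FPKM, so that its level partly carries that choice.

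Replication-dependent histone genes, whose mRNAs are made in S phase and end in a stem-loop instead of a poly(A) tail, had 33 of 34 lower estimates and a median of -0.54. With no filter, 62 of 66 members were lower (median -0.49). None was called, and 15 of 34 (44.1%) were lower at an unadjusted p under 0.05, against 3.62% of all tested features. Without antisense replicates 9 and 19, 7 of 35 were lower, and 4.27% of all tested features. Hist1h1b, a linker histone, had 0, 5.33 and 25.6 FPKM with antisense and 0, 8.39 and 22.7 FPKM with GFP (-0.94 ± 0.34, limma adjusted p = 0.241). Hist1h1e had medians of 2.53 and 3.78 FPKM and Hist1h4b, a copy of histone H4, of 3.63 and 5.29 FPKM. With antisense means of 4.07 and 4.12 FPKM, both passed the filter through the GFP embryos. How many other members did so was not counted, so that the number lower among those tested in itself shows little. Copies within the histone clusters are near-identical, and their reads cannot be assigned with certainty.

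The histone difference was uneven over the batches. The list was lower by 1.79 in P, 1.33 in Q, 1.31 in J, 0.34 in K and 0.13 in N, and higher by 0.44 in L and 0.38 in M. Over all embryos the medians of its mean log2(FPKM + 1) were close, at 5.10 with antisense and 5.17 with GFP, with lowest embryos at 1.96 and 2.52. Factors that process histone mRNA had a median of -0.0035. Slbp, which binds the histone stem-loop, had medians of 116 and 95.4 FPKM (0.40 ± 0.17, limma adjusted p = 0.332), and Lsm10 of 20.6 and 17.2 FPKM. Asf1b, a chaperone of histones H3 and H4, had medians of 69.4 and 45.5 FPKM (0.56 ± 0.20, limma adjusted p = 0.232), and Dek of 34.2 and 28.7 FPKM. H3f3a and H3f3b, which encode the histone H3.3 that the injected reporter carries, were close, with medians of 889 and 927 FPKM and of 934 and 982 FPKM.

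Pluripotency and first lineage factors had a lower estimate for 19 of 26 tested members (median -0.22). At an unadjusted p under 0.05, 4 (15.4%) were lower and 1 (3.85%) higher, against 3.62% and 7.25% of all tested features. Pou5f1, the pluripotency factor OCT4, had 13.5, 85.2 and 212 FPKM with antisense and 9.81, 124 and 309 FPKM with GFP (-0.32 ± 0.25, limma adjusted p = 0.687). Nanog had medians of 14.9 and 25.7 FPKM (-0.42 ± 0.29, limma adjusted p = 0.633). Tead4, the transcription factor that directs the trophectoderm, had medians of 104 and 124 FPKM, and 4 antisense embryos lay below the lowest GFP embryo. Fgfr2, a receptor for fibroblast growth factors, had medians of 2.38 and 6.19 FPKM, and passed the filter with an antisense mean of 4.54 FPKM. With no filter, 26 of 37 members of the list had a lower and 11 a higher estimate (median -0.19).

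Yap1, the coactivator of TEAD factors, had a higher estimate, with medians of 13.7 and 9.74 FPKM and a higher mean in 7 of 7 batches (0.34 ± 0.14, limma adjusted p = 0.329). The lineage list was lower in 4 of 7 batches, by 0.60 in J, 0.46 in Q, 0.25 in M and 0.21 in L. Of 19 tested adhesion genes before compaction, 12 had a lower and 7 a higher estimate (median -0.13, and 0.045 without batch Q). At an unadjusted p under 0.05, 2 (10.5%) were lower and 1 (5.26%) higher, against 3.62% and 7.25% of all tested features. The higher one was Prkcz, with medians of 8.46 and 7.46 FPKM (0.46 ± 0.21, limma adjusted p = 0.395). Jup, which encodes plakoglobin, had medians of 11.9 and 21.1 FPKM (-0.84 ± 0.28, limma adjusted p = 0.188). Actb had medians of 291 and 535 FPKM and Cdh1, E-cadherin, of 8.95 and 13.9 FPKM.

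Several other lists had medians near that of all features. The 8 tested genes of RNA sensing and the interferon response had a median of 0.03 and no member at an unadjusted p under 0.05 in either direction, and Irf3 had medians of 12.1 and 10.7 FPKM. The 16 tested genes of small RNA and tRNA fragment pathways likewise had no such member (median -0.01), with Dicer1 at medians of 7.22 and 5.74 FPKM. Aminoacyl-tRNA synthetases had a median of 0.04, and 2 of 22 (9.09%) were higher at that level, against 7.25% of all tested features. Iars, the isoleucyl-tRNA synthetase, had medians of 27.8 and 18.8 FPKM.

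Factors reported to restrain or to activate the 2-cell programme had medians of 0.00 over 29 and -0.02 over 10 tested members. Stress genes had counts near the shares over all tested features, which were 7.25% higher and 3.62% lower at an unadjusted p under 0.05. Of 18 tested genes of the integrated and unfolded-protein responses 2 (11.1%) were higher at that level. Ppp1r15a, or GADD34, which helps to dephosphorylate eIF2α, had 29.3, 68.7 and 519 FPKM with antisense and 7.86, 55.5 and 123 FPKM with GFP (0.76 ± 0.24, limma adjusted p = 0.18), while Atf4 had medians of 96.4 and 98.6 FPKM. Of 14 p53 targets and cell death genes 1 (7.14%) was higher, Mdm2, the ubiquitin ligase of p53, with medians of 42.7 and 30.8 FPKM (0.63 ± 0.20, limma adjusted p = 0.188). Of 32 heat-shock genes 2 (6.25%) were lower, among them Hsp90ab1 with medians of 1519 and 2014 FPKM.

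In metabolism and turnover, 1 of 13 glycolysis genes was higher and 1 lower at an unadjusted p under 0.05. Over all tested features these shares were 7.25% and 3.62%, and the counts below are to be read beside them. Ldhb, a subunit of lactate dehydrogenase abundant in the oocyte, had medians of 59.5 and 40.1 FPKM (0.72 ± 0.20, limma adjusted p = 0.175). Proteasome subunits had a median of -0.06, with 1 of 41 higher, the activator subunit Psme3 (33.8 and 23.3 FPKM). Zfp57, which protects imprints, had medians of 56.9 and 43 FPKM, and it was the 1 of 10 tested genes of DNA methylation that was higher at that level. Genes of cell division had a median of 0.08 over 40 tested members, with 1 at that level in each direction. The exosome, amino acid transporters, cholesterol genes, imprinted transcripts and metallothioneins with oxidative stress genes had medians of 0.03, -0.03, -0.05, -0.37 and -0.11 over 13, 8, 15, 9 and 13 tested members, with at most 1 member at that level in either direction. The imprinted median was -0.014 over all 29 members with no filter, of which 13 had a higher and 16 a lower estimate, and -0.025 over the tested members without batch Q. For these p-values that miss the threshold, no absence of a difference is shown.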

How the data were processed

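RNA was measured in single 4-cell embryos by single-cell RNA-seq with Nextera libraries (per the labels' protocols). Per the submitters' processing notes the aligner was Bowtie and the build mm10. The sources used here give no counter or annotation. The authors deposited FPKM per embryo for 23534 features; a 0 is written as 0.001, and 1 line was empty. RefSeq (GRCm38.p6) matched 23375 features by symbol or accession and gave coordinates. Another 27 symbols had become dates, and 194 symbols were shared by 523 features.

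For 962 single-exon features, FPKM times length, less 235 bases, fell on whole multiples of 1 fragment (median 72.1% of values within 2%), which gave the estimated depths. One fragment of a 1-kb transcript equals 0.244 to 1.50 FPKM. The share was lowest in antisense replicates 9 (40.6%) and 11 (54.3%), whose depths are least certain.

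log2(FPKM + 1) was tested with limma 3.58.1 in R 4.3.3, with trend and robust moderation and batch as additive term, for features averaging 5 FPKM or more, two-sided, with Benjamini-Hochberg adjustment over all tested features and a threshold of 0.05. Differences on this scale understate changes of low genes. On simulated embryos of this comparison (7237 features, 200 of them changed) 81 of 100 changes of 1 on the log2 scale were recovered. Of 100 changes of 2, 98 were recovered, and 5 of 7037 unchanged features were called. With 200 changed features the adjusted threshold is easier to pass than where 2 are called, as here. Whether these shares hold for the measured embryos was not tested. There Obox3 at 1.34 and Tcstv3 at 1.57 were not called, whereas Obox5 at 1.03 and Obox2 at 1.19 were.

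The genes named were those called, the 12 of smallest p in each direction (mean of at least 10 FPKM), those called without antisense replicates 9 and 19, Obox, Zscan4, Tcstv and Tdpoz genes, and the first 2 and the 3 of smallest p in each list, of which not all are described. Members and lists were chosen with earlier results of these data known, so lists got no test. Alternatives were other scalings, filters, pseudocounts, covariates and moderation, embryo weights, and each embryo or batch left out.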

Additional observations from a re-analysis of the deposited data

How the results depend on the processing

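The count of called features was 2 with all embryos. It was 5 with the number of detected features as covariate, 1 without batch L, 4 without batch M or P, 0 without batch Q (481 higher and 105 lower at an unadjusted p under 0.05) and 10 without antisense replicates 9 and 19. Each embryo left out in turn gave 2 to 8 features, with 8 for antisense replicate 19 and 4 for GFP replicates 13 and 15, and both Obox2 and Obox5 were called in all 55 fits. With a replicate block from the title numbers the count was 2. The numbers do not pair the embryos: over 19 same-numbered pairs within batches the deviations from the group means correlated at a median of 0.02 (-0.29 to 0.12). Obox5 was also not called without batch L or with embryo quality weights.

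Near-level estimates changed sign. Obox6 became -0.035 without batch N, -0.0047 without batch P and -0.0073 without antisense replicates 9 and 19. Crxos1 became -0.012 with median-of-ratios scaling, -0.071 without the batch term, -0.022 without batch N, -0.071 without batch Q, -0.11 without antisense replicates 9 and 19, -0.0083 with depth as covariate (added after seeing the data), and -0.063 to 0.098 with each embryo left out. H3f3a became 0.054 with quantile normalization and 0.039 with quality weights. H3f3b became -0.015 without the batch term, -0.062 without batch Q, -0.064 without antisense replicates 9 and 19, and -0.015 to 0.11 with each embryo left out. AF067063 became 0.019 with values rescaled to a common sum, 0.081 with quantile normalization, 0.0080 without the batch term, 0.11 with the replicate block, 0.18, 0.16 and 0.051 without batches K, N and P, 0.16 without antisense replicates 9 and 19, 0.095 with depth as covariate, and -0.14 to 0.083 with each embryo left out. The cause was not tested. Over 22 alternatives the medians kept their sign, at 0.72 to 1.14 for the Obox list, 0.24 to 0.78 for 2-cell-stage transcripts, 0.37 to 0.55 for oocyte transcripts, -0.36 to -0.14 for ribosomal proteins, -0.75 to -0.26 for histones and -0.28 to -0.09 for lineage factors. Low transcripts rest on few fragments: Arg2 had about 8 at the median.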
